A study of Mus musculus with 14 samples.

Results

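The genes described here carry bile acids across the cells of the intestine or sense them there. They are 9 genes chosen by name (Slc10a2, Fabp6, Slc51a, Slc51b, Abcc3, Abcc2, Nr1h4, Gpbar1 and Fgf15), and every probe whose RefSeq accession maps to one of them was taken. This gave 11 probes of the 41174 on the array, and 9 of the 19096 genes that its probes name. Slc10a2 and Abcc3 have 2 probes each and the other genes have 1. All 11 probes gave a value on all 14 arrays, none was saturated, and 8 were well above background on every array; the other 3 belong to Slc10a2 (its second probe), Fabp6 and Fgf15.

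The arrays are 1-color Agilent microarrays of mouse colon RNA, each from a single male C57BL/6 mouse. Flox mice carry GR fl/fl alleles and stand as controls, and GR iKO mice carry the same alleles with Villin-cre, which deletes the glucocorticoid receptor (GR) in the intestinal epithelium from development on, while other cells of the colon keep it. All mice were adrenalectomized (ADX), so all lacked adrenal glucocorticoids; at that operation they were 6 to 8 weeks old by the deposited labels and 3 months old by the paper. After 2 weeks they received 1 mg/kg of the synthetic glucocorticoid dexamethasone (DEX) or PBS alone by i.p. injection, and tissue was collected 6 hours later, at 8 to 10 weeks of age by the labels. The groups are Flox PBS (4 arrays), Flox DEX (3 arrays), GR iKO PBS (3 arrays) and GR iKO DEX (4 arrays), read from the sample titles because the treatment text describes DEX for every sample. Each group lies on a slide and in a scan of its own, so group and slide cannot be told apart, and the number of arrays limits the precision of every value. The 75th percentile of intensity ran from 566.2 to 774.1 over the arrays, and 28266 to 30510 probes per array were well above background.

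Bile acids are made in the liver, released into the gut to dissolve fat, and largely taken back in the ileum, where an apical transporter (Slc10a2), a cytosolic binding protein (Fabp6) and a basolateral exporter of paired subunits (Slc51a and Slc51b) pass them on to portal blood. Bile acids that escape reach the colon, where uptake is mostly passive. The nuclear receptor FXR (Nr1h4) and the membrane receptor TGR5 (Gpbar1) sense them, and FXR in the ileum drives the hormone FGF15, which lowers bile acid synthesis in the liver.

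Signals are given as the log2 of the background-corrected intensity minus the log2 of the 75th percentile of the same array, so that 0 is the 75th percentile and 1 unit is a doubling. A change is the mean of 1 group minus that of another, in the same log2 units, with the standard error (SE) and adjusted p of a limma fit to all probes and all 14 arrays. A probe is called where the adjusted p is under 0.05 and the change is at least 2-fold. Levels are compared between groups for 1 probe at a time; only the gene with the brightest probe of each marker list is named across probes.

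The genotype labels were checked first with Nr3c1, the gene of GR. This gene is no check of the PBS and DEX labels. Its brightest probe read 1.40, 1.48, 1.46 and 1.28 in Flox PBS, 1.13, 1.13 and 1.34 in Flox DEX, 0.79, 0.44 and 0.28 in GR iKO PBS, and −0.14, −0.08, 0.04 and 0.00 in GR iKO DEX. Every GR iKO array lay below every Flox array. The change between genotypes was −0.90 under PBS (SE 0.12, limma adjusted p = 0.0162) and −1.24 under DEX (SE 0.12, limma adjusted p = 0.00319). Of its other probes, 2 gave −0.86 and −1.14 under PBS (limma adjusted p = 0.0284 and 0.0183), while the fourth did not pass in either comparison (limma adjusted p = 0.636 and 0.777). Without Flox PBS mouse 3 the adjusted p of the first under PBS was 0.0528, in a range of 0.00179 to 0.0528 over the arrays left out, and over 11 other settings it was under 0.05 in 6 (0.00368 to 0.744). Under DEX it was under 0.05 in 8 of 11 (0.00123 to 0.105), and above it with normexp background correction (0.105), with the mean of all 4 probes (0.0545) and with a pooled-variance test of 2 groups (0.0961). In bulk tissue, fewer cells of a type and less RNA per cell cannot be told apart.

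The tissue was checked with marker lists, each read as the mean log2 signal of its genes on an array. The colon epithelium list (8 of 8 genes on the array, Muc2 the brightest) read between 5.95 and 6.36 on all 14 arrays. Aqp8 had no value in GR iKO DEX mice 1 and 3, and Muc2 none in GR iKO DEX mouse 2. The means of these arrays, with the lowest (5.95, mouse 1) among them, are over the remaining genes. The small intestine list (8 of 8, Alpi the brightest) read between −4.99 and −3.27, and the Paneth cell list (3 of 5, Lyz1) between −2.88 and −1.08. GR iKO PBS mouse 2 had the highest mean on the Paneth cell list (−1.08 against −2.47 and −2.88 in mice 3 and 4 of its group). Its summed level on that list was not the highest (1190% of the 75th percentile against 997% and 1560%). On the small intestine list it had the highest summed level (269% of the 75th percentile against 74.7% and 56.9%). Its mean on this list was −3.67 (against −4.66 and −4.82). That was below GR iKO DEX mice 2 and 4 (−3.27 and −3.48) and Flox DEX mice 1 and 4 (−3.31 and −3.58). Of the small intestine genes, Sis read −0.16 in this mouse against −2.75 and −4.07, and Alpi 0.50 against −2.89 and −3.16. Treh, Apoa1 and Apoa4 were also higher there than in mice 3 and 4. Rbp2 was lower (−1.95 against −1.40 and −1.70). Lct (−5.48 against −5.50 and −5.23) and Apoc3 (−6.47 against −6.72 and −6.33) lay between those mice. GR iKO DEX mice 2 and 4 came next on the summed level of the small intestine list (243% and 235%). GR iKO PBS mouse 2 also stood apart on the distal colon list (5 of 6, Insl5 the brightest). The list mean was −3.89 there, against 0.50 and 0.34 in mice 3 and 4, and the summed level was 562% of the 75th percentile against 10400% and 9950%. Hoxb13, a homeobox gene of the hindmost gut, read −3.90 in this mouse against 4.38 and 4.61, while 3 of the 5 genes stayed well above background. Of the other arrays, GR iKO DEX mouse 2 read lowest on this list at −2.10, with Hoxb13 at −0.69.

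The same mouse was far from its group for Slc10a2, Slc51a, Slc51b and Nr1h4, and less so for Abcc3, but not for Fabp6, Abcc2, Gpbar1 or Fgf15. For the first 4 genes, responses that use GR iKO PBS are given with and without it, and for the other 5 genes leaving it out changed no call. It leaves 2 arrays in that group. The part that the position of the tissue along the gut has in this mouse's values was not tested.

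Against these backgrounds the 11 probes were counted. In Flox mice, DEX gave 2 called probes, both of Slc10a2 and both higher, where 1.57% of all probes tested were called; 7 of 11 had an unadjusted p under 0.05, beside 19% of all probes. A pooled-variance test of 2 groups, which the paper names for small groups in general and not for these arrays, gave 4 of 11 at an unadjusted p under 0.05 and at least 2-fold (1467 of all probes), and after adjustment 0, as for all probes. The same comparison in GR iKO mice gave 0 of 11 called by limma, where 5.01% of all probes were; 2 of 11 had an unadjusted p under 0.05, beside 27.7% of all probes. The pooled-variance test gave 0 before adjustment (2524 of all probes) and 0 after it (705 of all probes). Between genotypes under PBS, 0 were called by limma (0.134% of all probes), with 1 of 11 at an unadjusted p under 0.05 (7.79% of all probes) and 0 by the pooled-variance test (703 of all probes before adjustment, 0 after). Under DEX, 0 were called by limma (0.16% of all probes), with 6 of 11 at an unadjusted p under 0.05 (13.6% of all probes). The pooled-variance test gave 2 at an unadjusted p under 0.05 and at least 2-fold (658 of all probes), and 0 after adjustment, as for all probes. For the difference between the responses to DEX (GR iKO minus Flox), 0 were called by limma (0.221% of all probes), with 5 of 11 at an unadjusted p under 0.05 (12.1% of all probes), and no other tool was run. The median change of the 11 probes was 0.37 in Flox mice, beside 0.06 over all probes, 0.09 in GR iKO mice, beside 0.09, and −0.51 for the difference, beside 0.02. Between genotypes it was 0.17 under PBS, beside 0.00, and 0.08 under DEX, beside 0.04.

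Several of these counts rest on GR iKO PBS mouse 2. Without it, 6 of 11 probes in place of 2 had an unadjusted p under 0.05 in GR iKO mice (27.7% of all probes), still with 0 called by limma, and their median was 0.35, beside 0.11 over all probes. The median of the difference between the responses turned from −0.51 to 0.14, beside 0.03 over all probes, with 4 of 11 at an unadjusted p under 0.05 (12% of all probes). Called without that mouse were 3 in Flox mice (Slc51b as well as Slc10a2), beside 830 of all probes in place of 646. There 8 of 11 had an unadjusted p under 0.05, beside 20.3% of all probes. Between genotypes under DEX 1 was called (Slc10a2), beside 85 of all probes in place of 66. Between genotypes the median was then 0.06 under PBS and 0.08 under DEX.

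**Figure D1:**
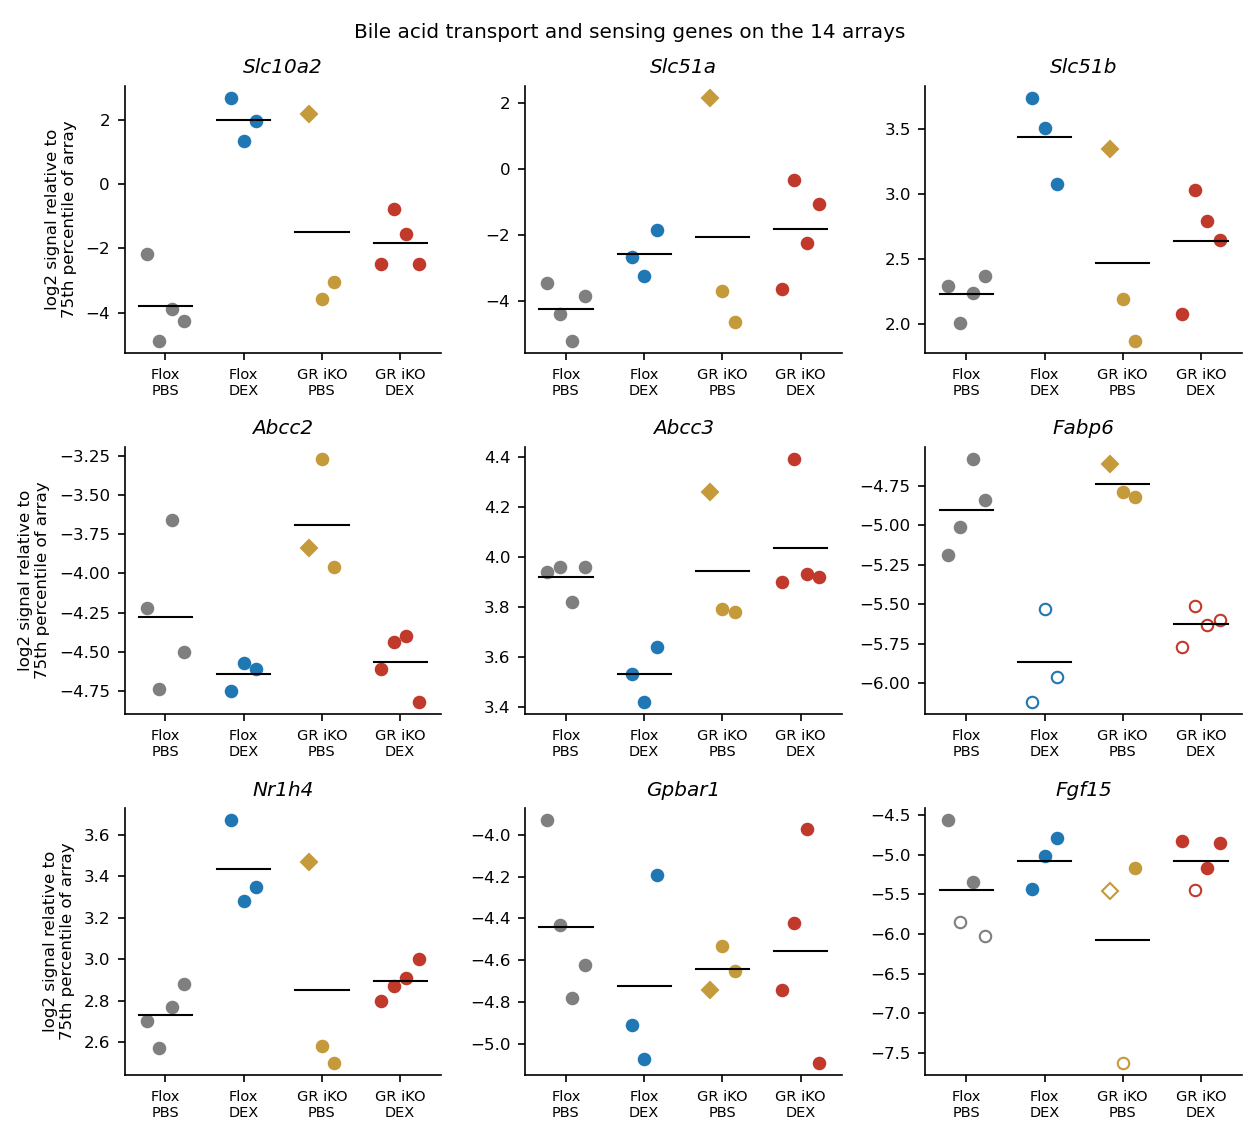
Log2 signal of each of the 9 genes on each of the 14 arrays (brightest probe, 0 = 75th percentile), by group; black lines are group means, hollow points were not well above background, and the diamond is GR iKO PBS mouse 2. For Slc10a2 the Flox DEX arrays sit between 1.33 and 2.67, with no Flox PBS array above −2.17, and the diamond at 2.17 lies among the Flox DEX arrays.

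Slc10a2 is the apical sodium-dependent transporter that takes bile acids up from the lumen. Its brighter probe read −2.17, −4.88, −3.89 and −4.25 in Flox PBS mice 1 to 4, and 2.67, 1.33 and 1.97 in Flox DEX mice 1, 2 and 4. In GR iKO PBS mice 2, 3 and 4 it read 2.17, −3.57 and −3.06, and in GR iKO DEX mice 1 to 4 it read −2.50, −0.79, −1.57 and −2.50. The 3 Flox DEX arrays were thus the highest but for GR iKO PBS mouse 2, which read as high as they did, and the other 10 arrays lay below 0. Flox PBS and Flox DEX did not overlap, and the GR iKO DEX arrays lay between them, overlapping Flox PBS only through its mouse 1.

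The deposited log2 table gave the same order of groups for Slc10a2. There the probe read 7.28, 4.55, 5.62 and 5.24 in Flox PBS and 12.06, 10.73 and 11.37 in Flox DEX. It read 11.57, 5.94 and 6.43 in GR iKO PBS and 6.81, 8.57, 7.80 and 6.89 in GR iKO DEX. GR iKO PBS mouse 2 is far off its group there as well, which was known from these data beforehand. The table is made from the same arrays, so its values add no separate result.

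Slc10a2 rose with DEX in Flox mice by 5.79 (SE 1.16, 95% confidence interval 3.26 to 8.32, 55.3-fold, limma adjusted p = 0.0225), and its group means were −3.80 (SD 1.16, n = 4) and 1.99 (SD 0.67, n = 3). The second probe gave 6.16 (SE 1.27, limma adjusted p = 0.0253); 1 of the 4 Flox PBS arrays was not well above background there. A further probe, outside the rule because only a synonym of the gene links it to Slc10a2, gave 6.70 (SE 1.23, limma adjusted p = 0.0163), but there only 1 of the 4 Flox PBS arrays was well above background, so the size of that change is taken largely against background. The 3 probes measure the same RNA and are not independent of each other.

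The call rested on few arrays. Without Flox PBS mouse 2, 3 or 4 the limma adjusted p of the brighter probe was 0.0561, 0.0595 and 0.0585, and without Flox DEX mouse 1, 2 or 4 it was 0.0914, 0.0564 and 0.0573, in a range of 0.00157 to 0.0914 over the 14 arrays left out in turn; the change stayed between 5.43 and 6.33. Over 11 other settings the change was 4.20 to 5.97 and the adjusted p 0.0129 to 0.0997. That p was above 0.05 with normexp background correction (4.20, adjusted p = 0.0997) and with the pooled-variance test (adjusted p = 0.0653). It was also above 0.05 with a block for the replicate number (5.55, adjusted p = 0.0617).

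**Figure D2:**
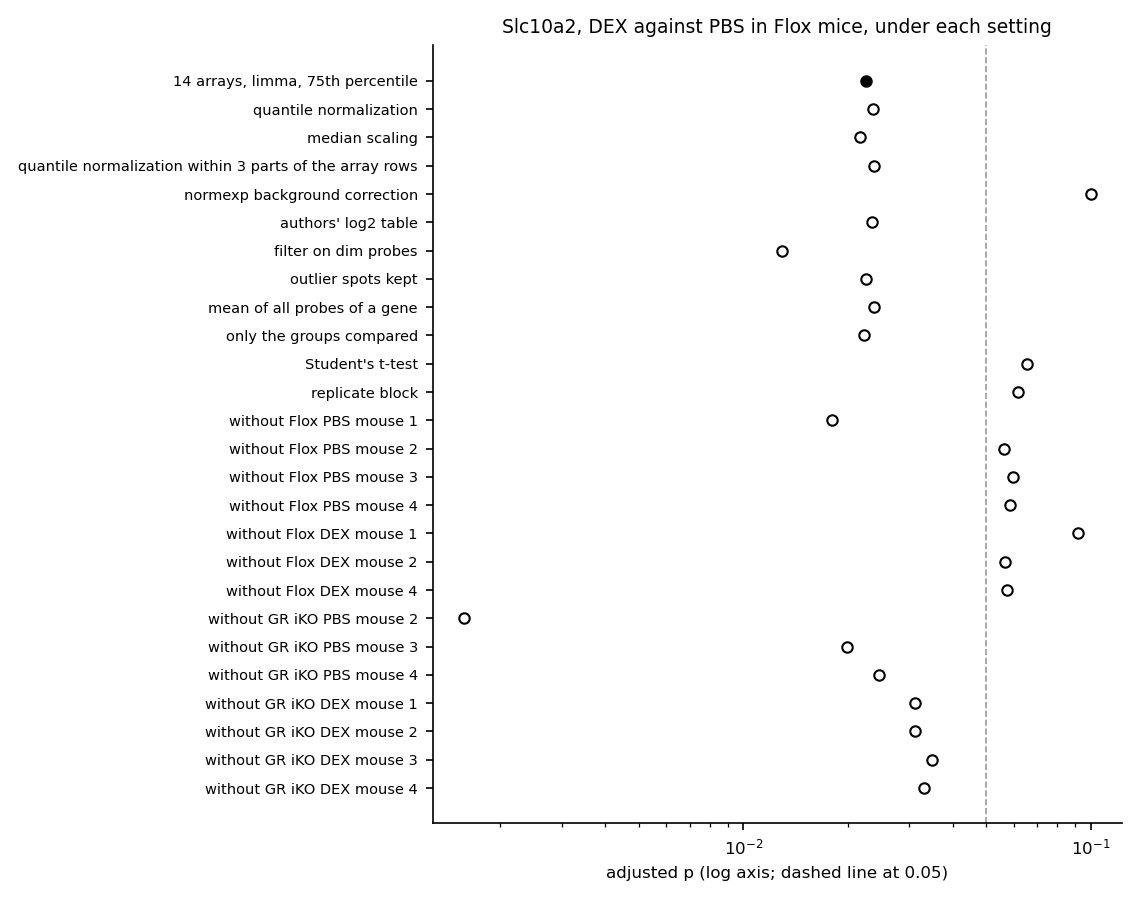
Adjusted p of the Slc10a2 response to DEX in Flox mice (log axis) with all 14 arrays (filled point), under each other setting and without each array in turn (hollow points); the dashed line is 0.05. The p lies between 0.0129 and 0.0997 over the settings and between 0.00157 and 0.0914 over the arrays left out.

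Within GR iKO mice the Slc10a2 values depended on mouse 2 of the PBS group, which read 2.17. With all arrays DEX minus PBS was −0.36 (SE 1.16, limma adjusted p = 0.863), with a PBS mean of −1.49 (SD 3.18, n = 3). Without mouse 2 the PBS mean was −3.32, and DEX minus PBS turned positive, at 1.47 (SE 0.71, 95% confidence interval −0.08 to 3.03, limma adjusted p = 0.204 in a range of 0.204 to 0.958 over the arrays left out in turn). Under either choice it did not pass the test. The same mouse set the spread of the whole fit for this gene: without it the SE of the Flox response was 0.62 in place of 1.16, and the limma adjusted p 0.00157 in place of 0.0225.

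Under DEX, GR iKO minus Flox was −3.83 for Slc10a2 (SE 1.16, limma adjusted p = 0.18), and all 4 GR iKO arrays lay below all 3 Flox arrays. Without GR iKO PBS mouse 2, which is in neither of those groups, the SE was 0.62 and the limma adjusted p 0.0338, past the threshold, in a range of 0.0338 to 0.401 over the arrays left out. The second probe did not pass even so (−3.98, limma adjusted p = 0.0593). The difference between the responses was −6.14 with all arrays (SE 1.64, 95% confidence interval −9.72 to −2.57, limma adjusted p = 0.143) and −4.32 without that mouse (SE 0.94, limma adjusted p = 0.0829). It was under 0.05 in none of 9 other settings (0.0997 to 0.723) and with none of the 14 arrays left out in turn (0.0829 to 0.265). The data thus do not show that the responses of Flox and GR iKO mice differ for this gene.

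**Figure D3:**
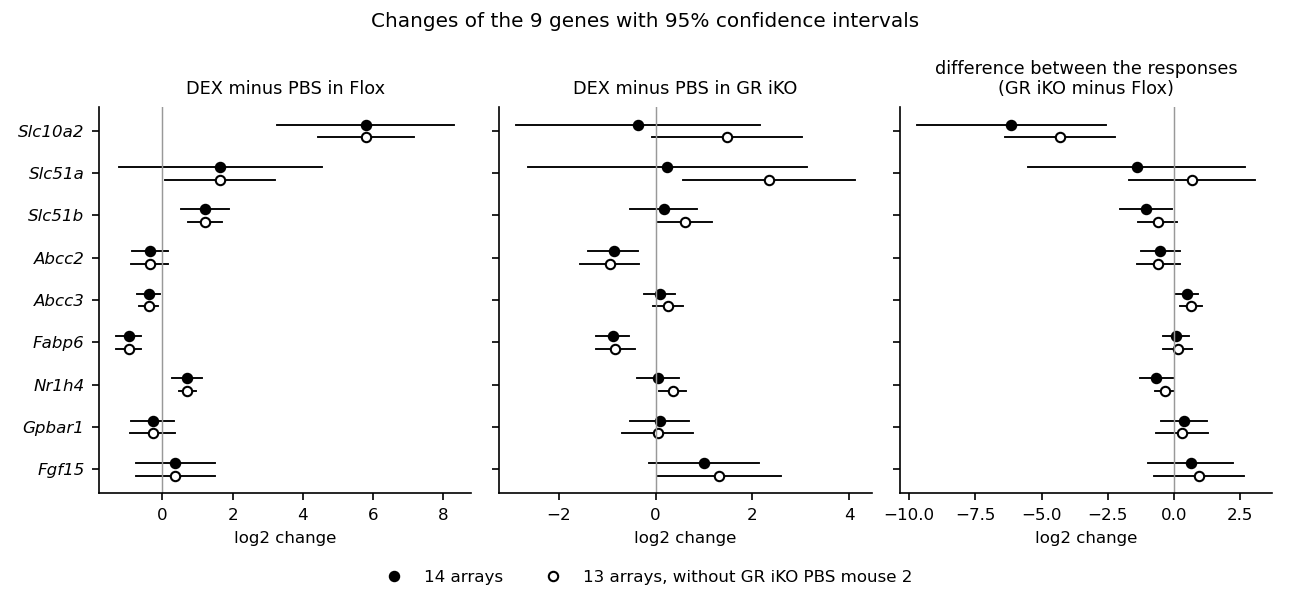
Log2 change with its 95% confidence interval for the 9 genes (brightest probe). Panels are DEX minus PBS in Flox mice, DEX minus PBS in GR iKO mice and the difference between these responses. Filled points are for all 14 arrays and hollow points leave out GR iKO PBS mouse 2. Each panel has an axis of its own, and the Fabp6 changes are taken against background. For Slc10a2 the Flox change is 5.79 both ways, and the GR iKO change is −0.36 with that mouse and 1.47 without it.

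Fabp6, the binding protein of bile acids in the cytosol of ileal cells, was dim. It read −5.19, −5.01, −4.58 and −4.84 in Flox PBS, −6.12, −5.53 and −5.96 in Flox DEX, −4.61, −4.79 and −4.82 in GR iKO PBS, and −5.77, −5.51, −5.63 and −5.60 in GR iKO DEX. All 7 PBS arrays lay above all 7 DEX arrays, and the probe was well above background on all of the former and none of the latter. GR iKO PBS mouse 2, so far off for Slc10a2, was within the PBS range here.

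Fabp6 fell in both genotypes under the limma fit, and because no DEX array was well above background each size is taken against background. In Flox mice the change was −0.96 (SE 0.16, limma adjusted p = 0.0105, 1.95-fold lower as measured). The GR iKO change was −0.89 (SE 0.16, limma adjusted p = 0.00673, 1.85-fold lower as measured). These measured values are short of the 2-fold needed for a call; with quantile normalization, median scaling, quantile normalization within 3 parts of the array and the authors' table the Flox change was −1.09, −1.04, −1.14 and −1.10, and Fabp6 was called. As both changes are taken against background, a difference between the responses could not be measured. The direction turned with normexp background correction, to 0.58 in Flox mice (adjusted p = 0.279, in a range of 0.00532 to 0.279 over the settings) and 0.05 in GR iKO mice (adjusted p = 0.964, in a range of 0.00102 to 0.964). That correction adds an offset of 50 to every intensity. Fabp6 intensities were 10.4 to 32.3, so this setting can say little on the direction of so dim a probe. The Flox test was also lost without Flox DEX mouse 1, at −6.12 the lowest array (−0.84, adjusted p = 0.0567, in a range of 0.006 to 0.0567). It was lost too in a fit of the 2 Flox groups alone (adjusted p = 0.0655) and with the pooled-variance test (adjusted p = 0.12).

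Slc51a, the first subunit of the basolateral exporter, varied widely among GR iKO arrays. It read −3.44, −4.40, −5.20 and −3.85 in Flox PBS and −2.67, −3.23 and −1.85 in Flox DEX. It read 2.14, −3.68 and −4.62 in GR iKO PBS and −3.62, −0.33, −2.25 and −1.06 in GR iKO DEX. GR iKO PBS mouse 2 was the highest of all 14 arrays, and GR iKO DEX mice 2 and 4 came next. Flox DEX lay above Flox PBS with no overlap, yet the change of 1.64 (SE 1.33, limma adjusted p = 0.559) did not pass the test. For GR iKO mice DEX minus PBS was 0.24 with all arrays (limma adjusted p = 0.92) and 2.34 without mouse 2 (SE 0.81, adjusted p = 0.0857, in a range of 0.0857 to 0.996 over the arrays left out). The response difference turned from −1.40 to 0.69 (adjusted p = 0.867, in a range of 0.597 to 0.945).

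The order of the Slc51a arrays was close to the reverse of their order on the distal colon list. This relation was looked at after the values were seen, and is a description over arrays that share groups and slides. Pearson r was −0.95 over 14 arrays and −0.89 over the 13 without GR iKO PBS mouse 2 (Spearman −0.84 and −0.80). For Slc10a2 the same r was −0.57 and −0.44. The 3 Flox DEX arrays read 2.67, 1.33 and 1.97 for Slc10a2 at list means of −0.73, 0.11 and −1.16. GR iKO DEX mice 1 to 4 read −2.50, −0.79, −1.57 and −2.50 at list means of 0.32, −2.10, −0.25 and −1.29. GR iKO PBS mouse 2 read 2.17 at a list mean of −3.89. The r of Slc51b was −0.58 and −0.54, that of Nr1h4 −0.58 and −0.44, and that of Abcc3 −0.54 and −0.36. Other genes ran the opposite way or showed little: Fabp6 gave 0.05 and 0.57, Abcc2 0.11 and 0.55, Gpbar1 0.13 and 0.04, and Fgf15 −0.10 and −0.18. The part of the distal colon genes in these values was not tested.

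**Figure D4:**
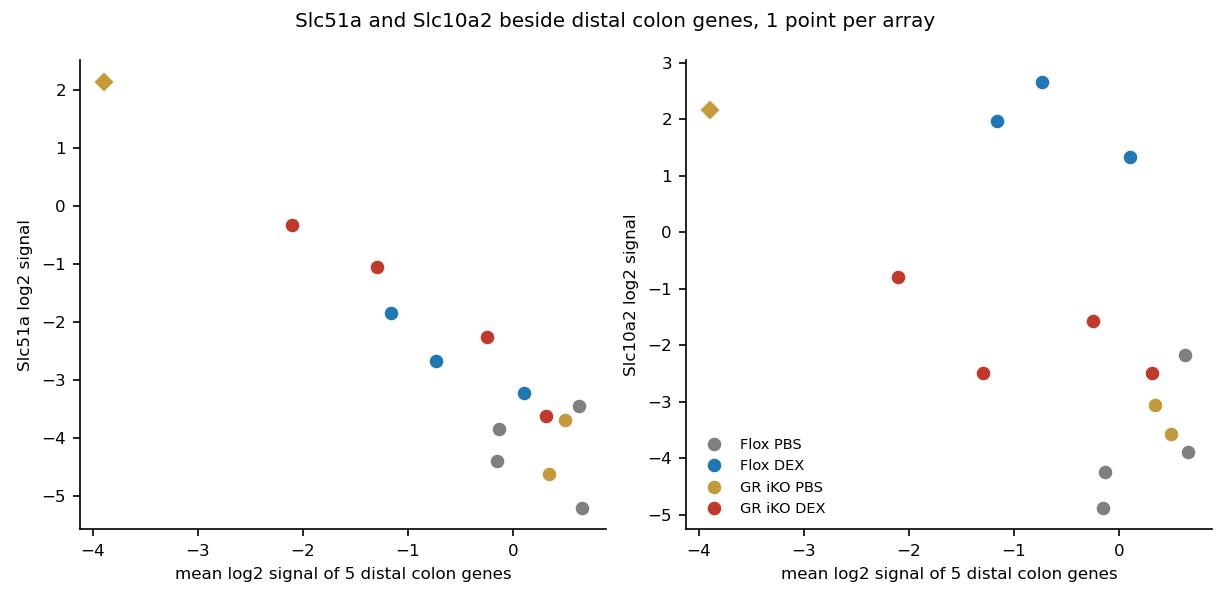
Log2 signal of Slc51a and of Slc10a2 against the mean log2 signal of the 5 distal colon genes, 1 point per array, colored by group, with GR iKO PBS mouse 2 as a diamond. Slc51a runs against the list over all groups (r −0.95). For Slc10a2 r is −0.57, and the Flox DEX arrays lie above the other arrays of like list mean.

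Slc51b, the second subunit of that exporter, was well above background on every array. It read 2.29, 2.01, 2.24 and 2.37 in Flox PBS and 3.74, 3.51 and 3.08 in Flox DEX. It read 3.35, 2.19 and 1.87 in GR iKO PBS and 2.08, 3.03, 2.79 and 2.65 in GR iKO DEX. All Flox DEX arrays were above all Flox PBS arrays and all GR iKO DEX arrays, and GR iKO PBS mouse 2 again lay among them. The Flox change was 1.22 (SE 0.32, 2.33-fold, limma adjusted p = 0.0622), short of the threshold; without GR iKO PBS mouse 2 it was 1.22 with an SE of 0.22 (adjusted p = 0.0142) and without mouse 4 of that group the adjusted p was 0.0482, both called, in a range of 0.0142 to 0.195 over the arrays left out. It was also under 0.05 after a filter on dim probes (0.0392) and in a fit of the Flox groups alone (0.0324), in a range of 0.0324 to 0.2 over the settings. The GR iKO change was 0.17 (limma adjusted p = 0.774), and 0.61 without GR iKO PBS mouse 2 (adjusted p = 0.144, in a range of 0.144 to 0.973 over the arrays left out). Between the responses the difference was −1.05 (SE 0.45, limma adjusted p = 0.377), and −0.61 without that mouse (adjusted p = 0.513, in a range of 0.233 to 0.591).

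Abcc3 encodes a basolateral pump for conjugated organic anions, bile acids among them. Its brighter probe read 3.82 to 3.96 in Flox PBS, 3.42 to 3.64 in Flox DEX, 3.78 to 4.26 in GR iKO PBS and 3.90 to 4.39 in GR iKO DEX. The Flox DEX arrays were the lowest group, below every other array, while the remaining groups overlapped. DEX minus PBS in Flox mice was −0.39 (SE 0.15, limma adjusted p = 0.171), and GR iKO minus Flox under DEX was 0.50 (SE 0.15, limma adjusted p = 0.17). The second probe gave −0.36 (adjusted p = 0.253) and 0.65 (adjusted p = 0.119), so neither probe passed.

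Abcc2 encodes an apical pump that returns conjugates to the lumen, and its signal was dim, though well above background on every array. It read −4.22, −4.74, −3.66 and −4.50 in Flox PBS and −4.75, −4.57 and −4.61 in Flox DEX. It read −3.84, −3.27 and −3.96 in GR iKO PBS and −4.61, −4.44, −4.40 and −4.82 in GR iKO DEX. GR iKO PBS and GR iKO DEX did not overlap, whereas in Flox mice they did. Abcc2 fell in GR iKO mice by 0.87 (SE 0.24, limma adjusted p = 0.0342), less than 2-fold, and in Flox mice the change was −0.36 (limma adjusted p = 0.448). GR iKO minus Flox for these responses was −0.51 (SE 0.33, limma adjusted p = 0.602).

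The Abcc2 test in GR iKO mice was lost without PBS mouse 3, which read −3.27 (−0.66, adjusted p = 0.133), and without DEX mouse 1, 2, 3 or 4 (adjusted p = 0.0702, 0.0593, 0.0546 and 0.0681), in a range of 0.0141 to 0.133 over the arrays left out. Without PBS mouse 4 the change was −1.01 (adjusted p = 0.0475), at least 2-fold, and Abcc2 was called in GR iKO mice. That is 1 of 11 probes, beside 5.01% of all probes called there with all arrays. With quantile normalization, median scaling and the authors' table both Fabp6 (−1.17, −1.04 and −1.18) and Abcc2 (−1.10, −1.02 and −1.11) fell by at least 2-fold there. The Abcc2 test was lost with quantile normalization within 3 parts of the array (−0.85, adjusted p = 0.0531) and with the pooled-variance test (adjusted p = 0.0993). With normexp background correction the Abcc2 change was −0.21 in GR iKO mice (adjusted p = 0.899, in a range of 0.0153 to 0.899 over the settings) and turned to 0.54 in Flox mice. Abcc2 intensities were 21.9 to 77.7, beside the offset of 50 that this correction adds.

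Nr1h4 encodes FXR, the nuclear receptor for bile acids. It read 2.70, 2.57, 2.77 and 2.88 in Flox PBS and 3.67, 3.28 and 3.35 in Flox DEX. It read 3.47, 2.58 and 2.50 in GR iKO PBS and 2.80, 2.87, 2.91 and 3.00 in GR iKO DEX. As for Slc51b, the Flox DEX arrays and GR iKO PBS mouse 2 were the 4 highest of the 14. The Flox change was 0.70 (SE 0.20, 1.63-fold, limma adjusted p = 0.0824), which did not pass; without that mouse the SE was 0.11 and the adjusted p 0.00844, still under 2-fold, in a range of 0.00844 to 0.246 over the arrays left out. The change in GR iKO mice was 0.04 (limma adjusted p = 0.906), turning to −0.11 with median scaling, and was 0.35 without GR iKO PBS mouse 2 (adjusted p = 0.0971, in a range of 0.0971 to 0.982 over the arrays left out). The difference of the responses was −0.66 (SE 0.28, limma adjusted p = 0.377), and −0.35 without that mouse (adjusted p = 0.45, in a range of 0.254 to 0.604).

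Gpbar1, the membrane receptor TGR5, was dim and well above background on all arrays. It read −4.78 to −3.93 in Flox PBS, −5.07 to −4.19 in Flox DEX, −4.74 to −4.53 in GR iKO PBS and −5.09 to −3.97 in GR iKO DEX. All groups overlapped. The change was −0.28 in Flox mice (SE 0.28, 95% confidence interval −0.90 to 0.33, limma adjusted p = 0.641) and 0.09 in GR iKO mice (95% confidence interval −0.53 to 0.70, limma adjusted p = 0.861).

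Fgf15, the hormone that FXR drives in the ileum, was near the limit of detection. It was well above background on 2 of 4 Flox PBS arrays, 3 of 3 Flox DEX, 1 of 3 GR iKO PBS and 3 of 4 GR iKO DEX. Its signal ran from −6.03 to −4.56 in Flox PBS, −5.43 to −4.78 in Flox DEX, −7.63 to −5.16 in GR iKO PBS and −5.44 to −4.83 in GR iKO DEX, and all groups compared overlapped. The change was 0.37 in Flox mice (SE 0.52, limma adjusted p = 0.736) and 1.01 in GR iKO mice (SE 0.52, limma adjusted p = 0.237). The GR iKO value is taken against a group mostly not well above background, and was 0.23 without GR iKO PBS mouse 3, at −7.63 the lowest array (0.23 to 1.47 over the arrays left out), so no response was detectable at these signals.

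With all arrays, Flox DEX had the highest group mean and Flox PBS the lowest for Slc10a2, Slc51b and Nr1h4. Without GR iKO PBS mouse 2 the GR iKO PBS means were −3.32, 2.03 and 2.54, beside Flox PBS means of −3.80, 2.23 and 2.73, so that GR iKO PBS was lowest for Slc51b and Nr1h4. The 2 GR iKO PBS arrays left lay below all 4 GR iKO DEX arrays for Slc10a2 and Nr1h4 and overlapped them for Slc51b, and for none of the 3 genes did the GR iKO response pass the test with or without that mouse. Over the 14 arrays these genes ran together as well, given here as Pearson r with no test, over arrays that share groups and slides. The r of Slc10a2 was 0.91 with Slc51b and 0.91 with Nr1h4, and that of Slc51b with Nr1h4 was 0.93. Without GR iKO PBS mouse 2 these were 0.90, 0.89 and 0.92 over 13 arrays. Fabp6 and Abcc2, the pair that fell in GR iKO mice, had an r of 0.73 with each other (0.70 without that mouse), and Slc51a had an r of 0.63 with Slc10a2 (0.52). Fabp6 ran against the first 3 genes, with an r of −0.53 with Slc10a2, −0.50 with Nr1h4 and −0.50 with Slc51b (−0.81, −0.78 and −0.72 without that mouse).

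**Figure D5:**
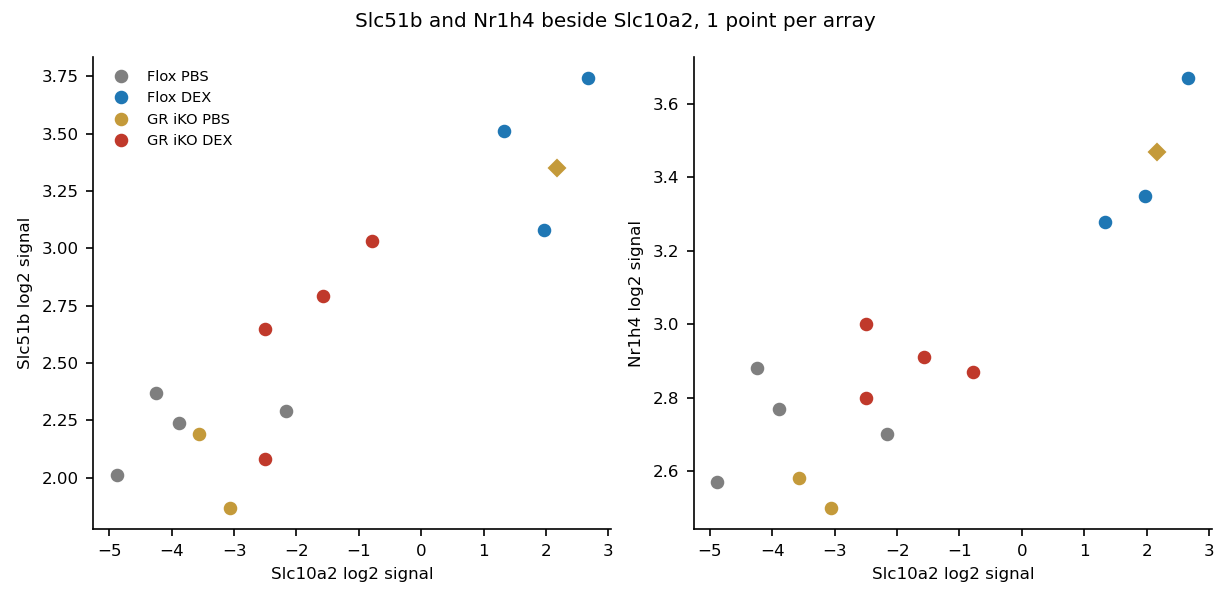
Log2 signal of Slc51b and of Nr1h4 against that of Slc10a2, 1 point per array, colored by group, with GR iKO PBS mouse 2 as a diamond. The Flox DEX arrays and the diamond form the upper right of both panels, and r is 0.91 in each.

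The promoters of these 3 genes and of Slc51a are printed, because their arrays spread most or ran together, from 250 bases before to 50 after the RefSeq start in assembly GRCm38.p6, each 5′ to 3′ on the minus strand of the chromosome, which is the gene's strand. They are chr8:5105238-5105537 (Slc10a2), chr16:32487830-32488129 (Slc51a), chr9:65422724-65423023 (Slc51b) and chr10:89506609-89506908 (Nr1h4). Capitals mark matches to the motifs named after the sequences.
Slc10a2: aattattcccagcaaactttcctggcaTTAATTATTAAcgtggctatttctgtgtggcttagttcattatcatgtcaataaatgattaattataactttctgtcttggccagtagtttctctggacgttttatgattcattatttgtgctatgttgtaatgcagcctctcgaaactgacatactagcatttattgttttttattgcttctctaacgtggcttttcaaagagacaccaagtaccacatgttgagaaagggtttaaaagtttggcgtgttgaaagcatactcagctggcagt
Slc51a: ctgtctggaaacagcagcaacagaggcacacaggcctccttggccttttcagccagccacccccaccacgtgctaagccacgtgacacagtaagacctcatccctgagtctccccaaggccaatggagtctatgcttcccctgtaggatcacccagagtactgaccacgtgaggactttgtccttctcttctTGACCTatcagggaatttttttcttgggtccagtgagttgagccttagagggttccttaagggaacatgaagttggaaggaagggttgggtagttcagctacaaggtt
Slc51b: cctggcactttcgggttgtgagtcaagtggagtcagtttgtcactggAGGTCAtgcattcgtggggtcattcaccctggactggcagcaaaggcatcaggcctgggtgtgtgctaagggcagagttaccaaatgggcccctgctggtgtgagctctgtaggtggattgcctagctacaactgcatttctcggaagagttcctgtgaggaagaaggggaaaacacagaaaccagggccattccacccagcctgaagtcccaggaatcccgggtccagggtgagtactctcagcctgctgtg
Nr1h4: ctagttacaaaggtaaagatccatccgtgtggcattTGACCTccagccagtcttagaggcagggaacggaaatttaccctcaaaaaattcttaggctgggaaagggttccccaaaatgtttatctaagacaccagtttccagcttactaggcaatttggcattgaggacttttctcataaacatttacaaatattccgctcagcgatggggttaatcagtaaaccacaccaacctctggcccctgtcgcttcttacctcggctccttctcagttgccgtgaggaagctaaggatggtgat

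Of the 9 genes, 7 have an entry in that promoter table; Fgf15 and Abcc3 do not. These 7 were searched on both strands for a glucocorticoid response element (AGAACA and TGTTCT, 3 bases apart, in 0.00913% of 32851 promoters of the same length) and its half-site (AGAACA, 19% of promoters, contained in the full element), for the FXR inverted repeat (AGGTCA and TGACCT, 1 base apart, 0.00913%) and its half-site (AGGTCA, 16.3%, contained in the repeat), and for an HNF1 site (GTTAAT and ATTAAC, 1 base apart, 0.00913%) and its central 11 letters (0.122%, chosen after the Slc10a2 sequence had been read). None of the 7 held the letters of the glucocorticoid response element or its half-site, of the FXR repeat or of the full HNF1 site. The central HNF1 letters stood in Slc10a2, at −223 to −213 from the start. The AGGTCA half-site stood once each in Slc51a (−58 to −53), Slc51b (−203 to −198), Nr1h4 (−214 to −209) and Abcc2 (−49 to −44). A match is a description of letters, and no match says only that these letters are not in this window.

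Among 22851 named probes well above background on at least 7 arrays, the 5 genes with the pattern most like that of Slc10a2 over the 14 arrays were Ermp1 (r 0.95), Hpgd (0.95), Cyp3a13 (0.93), Aqp1 (0.92) and 1600029I14Rik (0.92). Without GR iKO PBS mouse 2 the same r values were 0.95, 0.96, 0.96, 0.92 and 0.92. Because these genes were picked for running with Slc10a2 over the same arrays, their own responses to DEX add no separate result.

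Of a list of 40 other genes of bile acid transport, sensing, synthesis and detoxification, 38 are on the array. In Flox mice DEX gave 2 called higher and 1 called lower, where 1.57% of all probes were called, with a median of −0.02 beside 0.06 over all probes. Cyp3a13, a cytochrome of steroid and bile acid detoxification, rose by 1.78 (SE 0.29, limma adjusted p = 0.00954), and Cyp27a1, an enzyme of bile acid synthesis, rose by 1.55 (SE 0.20, limma adjusted p = 0.00335). Over 11 other settings the first was lost with normexp background correction (1.56, adjusted p = 0.094) and the pooled-variance test (adjusted p = 0.0817; range 0.0048 to 0.094), and the second with the pooled-variance test (adjusted p = 0.0801; range 0.00164 to 0.0801). Nr1i3, the receptor CAR, fell by 1.65 (SE 0.40, limma adjusted p = 0.0476), but its adjusted p was under 0.05 in only 2 of the 14 fits that leave 1 array out (without GR iKO PBS mouse 2 or 3; 0.00634 to 0.159 over all 14, highest without Flox DEX mouse 2), and with normexp background correction the change was −0.40. The difference between the responses did not pass for any of the 3 (limma adjusted p = 0.131, 0.0748 and 0.303).

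In GR iKO mice 2 of the 38 were called higher and 0 lower, a share near the 5.01% of all probes called there, with a median of 0.02 beside 0.09. Abcb11, the canalicular export pump of the liver, read −3.46, −5.11 and −4.13 in PBS and −1.99, −1.83, −1.99 and −2.07 in DEX. In Flox mice it read −3.11, −2.26, −2.37 and −2.53 in PBS and −3.07, −2.73 and −3.02 in DEX. The GR iKO DEX arrays were thus the highest of the 4 groups, and GR iKO PBS the lowest. Abcb11 rose in GR iKO mice by 2.27 (SE 0.31, limma adjusted p = 0.00231), and its response differed from that of Flox mice by 2.64 (SE 0.44, limma adjusted p = 0.0379), though that adjusted p was under 0.05 in only 3 of the 14 fits that leave 1 array out (without Flox PBS mouse 1, GR iKO PBS mouse 2 or GR iKO PBS mouse 3; 0.00658 to 0.0905 over all 14). The drug and bile acid carrier gene Slco1a4 rose in GR iKO mice by 1.60 (SE 0.43, limma adjusted p = 0.034), which was lost in 6 of 11 other settings (0.0223 to 0.619) and without GR iKO DEX mouse 1, 2, 3 or 4 (0.077, 0.0632, 0.0651 and 0.0539). Without GR iKO PBS mouse 3, which read −6.16 against −4.04 and −4.07, it was 0.90, under 2-fold. Between genotypes 0 of the 38 were called by limma under PBS or under DEX.

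The position of a probe on the array moved with the GR iKO response. Called higher after DEX in the GR iKO groups were 141 and 188 probes in the first and second of 3 parts of the array and 1395 in the last. For the difference between the responses these counts were 7, 8 and 60. Abcb11, Slco1a4, Slc51b, Nr1h4, Fgf15 and Fabp6 lie in that last part, Slc10a2, Slc51a, Abcc2 and Abcc3 in the first and Gpbar1 in the second. Hoxd12, Hoxa13 and Insl5 of the distal colon list lie in the last part too. The part of position in the list means, and in their relation to Slc51a, was not tested. With quantile normalization within each part, the GR iKO response was 1.87 for Abcb11 (adjusted p = 0.00289, in a range of 0.00126 to 0.2 over the settings), 1.03 for Slco1a4 (adjusted p = 0.105, in a range of 0.0223 to 0.619), 0.25 for Slc51b, 0.13 for Nr1h4, 0.19 for Fgf15 (1.01 before) and −1.63 for Fabp6. The Abcb11 difference between the responses was then 2.29 (adjusted p = 0.0299, in a range of 0.0246 to 0.723). With normexp background correction that difference was 1.00 (adjusted p = 0.723) and the GR iKO response 1.26 (adjusted p = 0.2), neither past the threshold, and the pooled-variance test gave an adjusted p of 0.0599 for the response.

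Markers of other cells that could enter the sample varied among the arrays. The exocrine pancreas list (9 of 9 genes, Clps the brightest) read −3.99, 5.63, −0.69 and −3.87 in Flox PBS and 7.49, 7.70 and −2.85 in Flox DEX. It read −3.82, −4.09 and −4.00 in GR iKO PBS and −3.06, 4.19, −3.20 and 3.27 in GR iKO DEX. High arrays thus occurred in 3 of the 4 groups, and all 9 genes were higher on average with DEX in Flox mice (median 5.11) and in GR iKO mice (median 4.43), though none passed the test. Among them Slc10a2 was the lowest of its group in Flox PBS mouse 2 (−4.88), the highest in Flox DEX mouse 1 (2.67) and GR iKO DEX mouse 2 (−0.79), and low in Flox DEX mouse 2 (1.33) and GR iKO DEX mouse 4 (−2.50).

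Other lists differed between PBS and DEX arrays, most clearly in Flox mice. The smooth muscle list (6 of 6, Cnn1 the brightest) read 5.24, 5.60, 5.52 and 5.42 in Flox PBS and 6.02, 5.92 and 6.37 in Flox DEX, with summed levels of 34700% to 41400% and 50300% to 64300% of the 75th percentile. The macrophage list (6 of 6, Cd14) read −0.78, −0.03, 0.11 and −0.27 in Flox PBS and −0.95, −0.81 and −1.19 in Flox DEX, with sums of 706% to 1130% and 564% to 672%. The B or plasma cell list (6 of 6, Jchain) read −0.66, 0.26, −0.35 and 0.11 and then −1.19, −0.80 and −1.33, with sums of 4180% to 9270% and 4070% to 4860%. The Flox PBS and Flox DEX means of these 3 lists did not overlap: all 6 smooth muscle genes were higher and all 6 genes of each other list lower with DEX. Of these genes only Myh11 passed the test (0.90, limma adjusted p = 0.0199), and none was called. In GR iKO mice the arrays overlapped on each list. Smooth muscle genes were higher in 6 of 6 (median 0.21) and macrophage genes in 0 of 6 (median −0.59). The B or plasma cell genes were mixed: 2 of 6 were higher, among them Jchain (0.63, against −0.67 in Flox mice), and the summed level ran the other way, from 4060% to 8730% in GR iKO PBS and 6770% to 10200% in GR iKO DEX. The liver list (5 of 6, Cyp2e1) read −4.12 to −2.54 over the 14 arrays.

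Lct, a digestive enzyme of the small intestine, rose with DEX by 3.83 in Flox mice (limma adjusted p = 0.00371) and 4.29 in GR iKO mice (limma adjusted p = 0.0013), and was the only gene of its list called. It was well above background on 11 of 14 arrays, so these sizes are taken partly against background, and with normexp background correction they were 2.14 and 2.26. In 1 of 11 other settings, the pooled-variance test, the Flox call was lost (adjusted p = 0.093, in a range of 0.00191 to 0.093). Of the other lists, GR iKO mice had calls for Hoxd12 of the distal colon list (2.52, limma adjusted p = 0.0279), Ahsg of the liver list (1.38, limma adjusted p = 0.0128) and Lyz1 of the Paneth cell list (−1.05, limma adjusted p = 0.0327), none of them kept throughout. Hoxd12 was well above background on 10 of 14 arrays, so its size is taken partly against background. Other genes of these lists went the other way. Of the distal colon genes 3 of 5 were higher (median 0.19), with Hoxd13 at −1.61 and Insl5 at −0.43. Of the liver genes 2 of 5 were higher (median −0.14), with Alb at −0.80, Ttr at −0.90 and Fgb at −0.14. Of the Paneth cell genes 1 of 3 was higher (Mmp7, 1.34). Hoxd12 and Ahsg were lost with quantile normalization within 3 parts (1.94, adjusted p = 0.0932, and 0.83, adjusted p = 0.0793). Over 11 settings Hoxd12 was under 0.05 in 6 (0.018 to 0.725), Ahsg in 9 (0.00313 to 0.712) and Lyz1 in 7 (0.0177 to 0.229). Hoxd12 was also lost without GR iKO PBS mouse 2 or 4 (0.0802 and 0.0572) or GR iKO DEX mouse 1, 2 or 3 (0.06, 0.0552 and 0.0581), in a range of 0.0204 to 0.0802. Lyz1 was lost without GR iKO PBS mouse 2 or 4 (0.0568 and 0.118) or GR iKO DEX mouse 2, 3 or 4 (0.0767, 0.0755 and 0.0524), in a range of 0.0149 to 0.118. The part of these markers in the bile acid genes was not tested.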

How the data were processed

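RNA was measured on 14 single-color arrays, 1 per mouse. Per the file headers, the deposited intensity values come from Agilent Feature Extraction 12.0.0.7, which subtracts background and detrends within each array. The deposited log2 table was quantile normalized between arrays by the authors (Partek 6.6 in their notes; sorted columns differ by at most 0.0024). From the intensity files, repeated spots were averaged, outlier spots left out, and log2 values taken minus the log2 75th percentile, for 41174 probes, of which 28223 name a gene. Groups came from sample titles. 1 limma 3.58.1 fit (R 4.3.3) to 4 groups gave 5 comparisons, with Benjamini-Hochberg adjustment over all probes, called at adjusted p under 0.05 and at least 2-fold. The fit was tested on simulated data. Alternatives were other normalizations, background corrections, filters, tests and samples. The normexp correction used an offset of 50. For Slc10a2 and Abcc3 the brighter probe stands for the gene. Genes named are all members, the 5 most like Slc10a2 and called genes of the other lists; others were chosen after their values were seen. Members and lists were chosen with earlier results of these data known. Figures used matplotlib 3.10.9.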

Additional observations from a re-analysis of the deposited data

Results flagged for a closer look

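In groups of 4 arrays, a result is given here where the gap between the highest or lowest array and the nearest of the others was a larger share of the group's range than 1 in 20 groups show by chance. This held in 4 of 86 groups tested, with 4.3 expected by chance. The brighter Abcc3 probe read 3.82 in Flox PBS mouse 3 against 3.94 to 3.96 in the others (ratio 0.861), and 4.39 in GR iKO DEX mouse 2 against 3.90 to 3.93 (ratio 0.938). Nr1i3 read −2.83 in GR iKO DEX mouse 2 against −2.48 to −2.44 (ratio 0.883). The smooth muscle list mean was 5.47 in GR iKO DEX mouse 1 against 6.10 to 6.21 (ratio 0.853). The group of 3 that holds GR iKO PBS mouse 2 is too small for this rule.

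The response of Abcb11 to DEX differed between the genotypes by 2.64 (limma adjusted p = 0.0379), the only result described here whose difference between the responses passed its test. It was under 0.05 in only 3 of 14 fits that leave 1 array out (0.00658 to 0.0905), and was 1.00 with normexp background correction (adjusted p = 0.723, in a range of 0.0246 to 0.723 over the settings). Abcb11 lies in the last of 3 parts of the array. There 60 probes were called higher for this difference, against 7 and 8 in the first and second parts. With quantile normalization within the parts the Abcb11 difference was 2.29 (limma adjusted p = 0.0299). The cause was not tested.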

How the results depend on the processing

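Of 728 values under other settings, 641 kept their direction and their side of the threshold, 59 lost the threshold, 2 passed it and 26 turned direction; of 966 values with 1 array left out these were 871, 69, 5 and 21. The cause was not tested. Counts here are of member probes, with all probes called in brackets. In Flox mice 2 were called (646), both of Slc10a2, and 0 with normexp background correction (58) and 0 with the pooled-variance test (Student's; 0). With a mean over the probes of each gene 1 of 9 genes was called (498), again Slc10a2. The count was 3, with Fabp6 lower, under quantile normalization (631), median scaling (673), quantile normalization within 3 parts (633), the authors' table (631) and no fold minimum (1304), and 3, with Slc51b higher, with a filter on dim probes (687) and in a fit of only the groups compared (511). With 1 array left out it was 0 to 3, and 3 without GR iKO PBS mouse 2 (830). In GR iKO mice 0 were called (2063). The count there was 2 with quantile normalization (1753), median scaling (1951), the authors' table (1753) and no fold minimum (4808). It was 1 with quantile normalization within 3 parts (1519). For the fits with 1 array left out it was 0 to 1, and 0 without GR iKO PBS mouse 2 (2365). Under DEX between genotypes 0 were called (66), and 0 to 1 with 1 array left out. This count was 1 without GR iKO PBS mouse 2 (85).

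Direction turned with quantile normalization for Gpbar1 in GR iKO mice (−0.17) and Abcc2 between genotypes under DEX (−0.01). It also turned for the Fabp6 difference between the responses (−0.08), itself between changes taken against background. With the authors' table it turned for the same 3 (−0.17, −0.02, −0.08). With median scaling it turned in GR iKO mice for Nr1h4 (−0.11), Abcc3 (−0.06) and Gpbar1 (−0.06). With quantile normalization within 3 parts it turned for Gpbar1 in GR iKO mice (−0.03), Fabp6 under DEX between genotypes (−0.03) and the differences of Fabp6 (−0.49) and Fgf15 (−0.02). With normexp it turned in Flox mice for Fabp6 (0.58), Abcc2 (0.54) and Gpbar1 (0.71), and in GR iKO mice for Slc51a (−0.18) and Fabp6 (0.05). Between genotypes it turned for Fabp6 under PBS (−0.15) and for Fabp6 (−0.68), Abcc2 (−0.65) and Gpbar1 (−0.61) under DEX. The differences of Fabp6 (−0.53), Fgf15 (−0.48) and Gpbar1 (−0.50) turned as well. The normexp offset of 50 is above every Fabp6, Fgf15 and Gpbar1 intensity, so this setting can say little on their direction.

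With 1 array left out, values that turned ran in GR iKO mice from −1.40 to 1.47 for Slc10a2, −1.50 to 1.48 for its second probe, −1.04 to 2.34 for Slc51a, −0.13 to 0.61 for Slc51b, −0.13 to 0.35 for Nr1h4, −0.03 to 0.25 for Abcc3 and −0.11 to 0.26 for Gpbar1. Between genotypes under PBS they ran from −0.20 to 0.54 for Slc51b, −0.19 to 0.30 for Nr1h4, −0.14 to 0.10 for Abcc3 and −1.09 to 0.14 for Fgf15, and under DEX from −0.02 to 0.44 for Gpbar1. The differences between the responses ran from −2.69 to 0.69 for Slc51a, −0.05 to 0.24 for Fabp6 and −0.14 to 1.10 for Fgf15.

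Samples of different groups share only a replicate number, and their deviations from the group mean had an r of −0.25 to 0.31 over 25738 probes. With a replicate block in the fit 0 member probes were called in Flox mice (398 of all probes; Slc10a2 5.55, adjusted p = 0.0617, in a range of 0.0129 to 0.0997 over the settings), and Abcc2 under DEX between genotypes turned to −0.06. The Abcb11 difference between the responses was 2.78 with that block (adjusted p = 0.0543, in a range of 0.0246 to 0.723). Signals near background limit Fabp6 and Fgf15.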
